A study of Mus musculus with 27 samples.

Results

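The cytosolic ribosomal protein genes encode the protein part of the ribosome that translates nuclear transcripts. Their members were the rows whose symbol starts with Rpl or Rps and a digit, or with Rplp, without the Rps6k kinases and without symbols holding -ps, which name pseudogenes. The rule took 91 of 22855 rows, 54 for the large subunit and 37 for the small subunit, and all 91 symbols were found in GENCODE M21 on GRCm38. RNA was sequenced from C57Bl/6 mice at postnatal day 1 (P1), in young mice of 4 and 14 weeks, and in older mice of 1 and 1.5 years, with no genetic change or treatment in any group. One tissue was the whole heart (3 samples at each age), and the other was cardiac fibroblasts sorted for PDGFRα, a surface receptor of fibroblasts, from digested ventricles (3 samples at P1 and at 4 weeks, 2 at each later age). The study's methods give 3 animals and 3 sets of fibroblasts from different hearts for each age, while 2 fibroblast samples were analysed here from 14 weeks on, and which animal gave which sample is not stated.

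Each ribosome holds 1 copy of most of its proteins, and the genes for them are usually expressed together. Rpl proteins build the large subunit, which joins amino acids, and Rps proteins build the small subunit, which reads the messenger. Most of these transcripts start with a C and a run of pyrimidines, the 5′ terminal oligopyrimidine (TOP) tract, through which growth signals such as mTOR set their translation. Growing cells invest more in ribosomes than resting ones. A few proteins have a second gene used in some tissues, as with Rpl3l, which takes the place of Rpl3 in heart and skeletal muscle.

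Total counts were between 54615898 and 76758831 in cardiac fibroblasts and between 46091271 and 67984404 in whole hearts, and genes of the mitochondrial genome took 1.74% to 9.18% and 10.8% to 34.5% of them. The tissue labels were checked against markers. In CPM (counts scaled to a common library size, here by the TMM method), 6 fibroblast markers summed to between 18620 and 39210 in the fibroblast samples, and 7 cardiomyocyte markers to between 32760 and 75270 in the hearts. The fibroblast samples of P1 also held 630 to 704 CPM of the cardiomyocyte markers, and later ones 13.7 to 170. Endothelial markers (7 genes) in the fibroblast samples summed to 353 to 604 CPM at P1 and 433 to 2276 CPM at 4 weeks. From 14 weeks on the sums were 1407 to 1776, 328.5 to 602.5, and 177 to 1425 CPM in order of age. Hearts of 14 weeks held 984 to 1049 CPM of them, with each tissue scaled on its own. The part of endothelial cells in the fibroblast results was not tested. Xist, expressed from the inactive X chromosome, was at most 0.57 CPM at 14 weeks and 1 year in both tissues, and the Y-linked gene Ddx3y was at most 0.397 CPM at 1.5 years. At 4 weeks Xist was between 379 and 590 CPM in cardiac fibroblasts and between 6.48 and 140 CPM in whole hearts. Ddx3y at 4 weeks was between 24.8 and 50.8 CPM and between 1.64 and 33.9 CPM in the same order. At P1 Xist was between 137 and 276 CPM in cardiac fibroblasts and between 124 and 334 CPM in whole hearts. Ddx3y at P1 was between 31.6 and 36.3 CPM and between 4.58 and 26.6 CPM. Both genes were thus counted in every sample of P1 and 4 weeks. The labels do not give sex, so that age and sex cannot be told apart from 4 to 14 weeks or from 14 weeks to 1.5 years.

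The start sites are shown because a TOP tract is the sequence feature these genes are known to share. RefSeq (GRCm38.p6) listed a start for 66 of the 91 members. The tract sought was a C followed by at least 5 more pyrimidines (C or T), on the strand that reads like the transcript. It lay within 15 bases of the annotated start for 37 of these 66 members (56.1%) and for 25.5% of all 27025 genes listed. On the opposite strand the shares were 9.09% and 28.6%. Each line gives 30 bases, 15 before the start and 15 from it, with the tract in capitals. The first pair are large and small subunit members with a clear tract, Rplp2 is a protein of the stalk, and Rpl22l1 is a second gene for Rpl22. In Rpl3l and Rpl27 these letters were not found in this window. The start of Rpl27 in GENCODE M21, at chr11:101442298, lies past the end of its window.
Rpl38: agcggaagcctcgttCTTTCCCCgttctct
Rps27: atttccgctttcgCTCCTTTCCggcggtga
Rplp2: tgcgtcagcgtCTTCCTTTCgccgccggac
Rpl22l1: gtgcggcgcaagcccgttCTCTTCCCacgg
Rpl3l: gagtgttctagctctgtcatttgacctctg
Rpl27: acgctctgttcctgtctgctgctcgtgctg
These windows lie at chr11:114668565-114668594 (Rpl38, plus strand), chr3:90213634-90213663 (Rps27, minus strand), chr7:141447636-141447665 (Rplp2, plus strand), chr3:28805493-28805522 (Rpl22l1, plus strand), chr17:24727811-24727840 (Rpl3l, plus strand), and chr11:101442230-101442259 (Rpl27, plus strand). The median log2 fold change from P1 to 4 weeks in cardiac fibroblasts was -0.83 over 36 members with a tract and -0.85 over 25 without. From 14 weeks to 1.5 years in whole hearts it was 1.09 over 36 and 1.16 over 26.

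The share of all counts that fell on the member rows moved with age in both tissues. In cardiac fibroblasts it was 2.08% ± 0.163 at P1 and 1.13% ± 0.0642 at 4 weeks (SD, n = 3 each). The later ages were close to each other, with 1.63% ± 0.00141 for 14 weeks, 1.57% ± 0.0149 for 1 year, and 1.64% ± 0.192 for 1.5 years (SD, n = 2 each). The 3 samples of 4 weeks (1.07%, 1.2%, and 1.13%) thus lay below every other fibroblast sample. Whole hearts went from 2.58% ± 0.178 at P1 over 1.45% ± 0.394 at 4 weeks to 1.13% ± 0.0989 at 14 weeks. They then stood higher, with 1.71% ± 0.146 in the hearts of 1 year and 2.67% ± 0.466 in those of 1.5 years (SD, n = 3 each). The hearts of P1 and 1.5 years lay above those of all other ages. At 4 weeks the heart samples were uneven, at 1.03%, 1.81%, and 1.51%, and the mitochondrial genome took 26.8%, 14.9%, and 20.1% of their counts in the same order. With mitochondrial counts left out of the total, the heart shares were 2.93%, 1.80%, 1.62%, 2.52%, and 3.38% in order of age. The 200 pseudogene rows that the rule leaves out took at most 0.0265% of the counts of any sample.

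**Figure D1:**
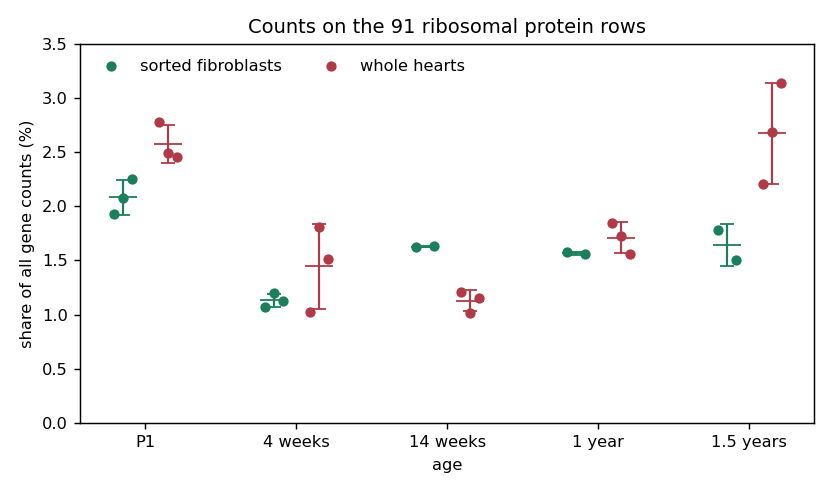
Share of all gene counts (%) on the 91 ribosomal protein rows by age, with 1 point per sample, a horizontal mark for the mean, and bars of 1 SD (n = 3, or 2 for fibroblasts from 14 weeks on). Cardiac fibroblasts are lowest at 4 weeks (mean 1.13%), and whole hearts are lowest at 14 weeks (1.13%) and high at P1 and 1.5 years (2.58% and 2.67%).

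Per kilobase of transcript, levels among members spanned several orders. Rplp1, an acidic protein of the stalk that contacts elongation factors, was highest in both tissues at 1439 CPM per kilobase in cardiac fibroblasts and 1716 in whole hearts. Next came Rps15 (609.7) and Rplp2 (569) in cardiac fibroblasts, and Rplp2 (991) and Rpl36 (942) in whole hearts. The lowest were Rpl39l, Rps12l1, and Rpl10l in cardiac fibroblasts (0.285, 0.164, and 0.00488), and Rps12l1, Rpl24, and Rpl10l in whole hearts (0.247, 0.173, and 0.00180). Rpl10l, a second gene for Rpl10 known from testis, and Rps12l1 did not pass the filter on low counts in cardiac fibroblasts, nor Rpl10l in whole hearts, which left 89 and 90 members tested.

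Counts of these genes depend on how reads are assigned, since retrotransposed copies of ribosomal protein transcripts are spread over the mouse genome. The share of read-length windows (65 bases) of a member's transcripts that are also found in transcripts of other genes was over 50% for 49 members and under 20% for 19. Of the members, 6 are annotated as pseudogenes (Rpl37rt, Rpl6l, Rps12l1, Rps3a2, Rps3a3, and Rps4l), and 12 had at least 20% of their exon bases under another gene. Rpl24, an essential protein of the large subunit, was listed at no more than 2.29 CPM in any sample, with 81.2% of its windows shared and 71.5% of its exon bases overlapped. Since reads that map to several places are not counted, levels of such genes can be understated. A window can also count as shared because another gene covers the same bases, and the 2 cases were not separated here. Rps19bp1, which the rule takes by its name, encodes a binding partner of Rps19 and not a ribosomal protein.

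From P1 to 4 weeks, ribosomal protein genes fell together in cardiac fibroblasts. In edgeR's quasi-likelihood F test 74 of 89 members were lower at a Benjamini-Hochberg adjusted p under 0.05 and 0 were higher, against 6.2% lower and 9.28% higher over all 18759 genes tested (15.5% in either direction). The samples of both ages did not overlap for 76 of the 89 members and for 28.5% of all genes. The median log2 fold change was -0.80 over members and 0.00 over all genes. Both subunits took part, with 43 of 53 large and 31 of 36 small subunit members lower. Among members with at least 10 CPM that passed the test, the largest fall was in Rpl27, a large subunit protein. Its level was 52.2, 64.3, and 83.0 CPM at P1 and 20.6, 26.7, and 26.7 CPM at 4 weeks, which gave -1.43 as log2 fold change (SE 0.19, adjusted p = 0.000255). Rpl38, a large subunit protein linked to the translation of Hox transcripts, was at 46.1, 55.3, and 47.9 CPM at P1 and at 15.5, 20.8, and 25 CPM at 4 weeks (log2 fold change -1.28, SE 0.19, adjusted p = 0.000523). Rps26, which lies at the exit of the messenger, went from 440, 404, and 356 CPM to 144, 181, and 170 CPM (log2 fold change -1.28, SE 0.13, adjusted p = 2.58e-05). In each of these genes the groups did not overlap. Rpl32 (-1.25) and Rpl37rt (-1.24) followed.

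The stalk protein genes Rplp0, Rplp1, and Rplp2 had log2 fold changes of -1.05, -0.78, and -0.61 (adjusted p = 0.000496, 0.00221, and 0.00273 in edgeR). Rpl5 and Rpl11, which carry 5S rRNA and bind Mdm2, changed by -0.61 and -1.08 (adjusted p = 0.00455 and 0.000103). Rps19, the gene most often mutated in Diamond-Blackfan anemia, fell by 1.06 (adjusted p = 0.000463). Members that were not lower included Rpl22l1 at -0.04 (adjusted p = 0.987), Rpl7l1 at -0.21 (adjusted p = 0.628), and Rps27l at -0.03 (adjusted p = 0.989). Their symbols pair them with Rpl22, Rpl7, and Rps27. The usual genes of these pairs were lower, Rpl22 by 0.69 and Rpl7 by 0.52 (adjusted p = 0.00953 and 0.0098), and Rps27 had a log2 fold change of -0.59 (adjusted p = 0.0338). Whether the genes of a pair differ in their change was not tested.

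Other parts of the translation machinery were counted over the same samples. Of 14 translation factors and related genes 11 were lower and 0 higher (median -0.74). Among the lower were the poly(A)-binding protein gene Pabpc1 (-1.04), the initiation factor gene Eif3e (-0.99), and the elongation factor gene Eef1b2 (-0.95). Of ribosomal proteins with other names 3 of 4 tested were lower, Rpsa (-0.91), Rack1 (-0.78), and Fau (-0.60). Of 30 genes of ribosome biogenesis 5 were lower, including Npm1 (-1.33), Rrs1 (-1.20), and the fibrillarin gene Fbl (-1.04). Mitochondrial ribosomal protein genes had 3 lower and 1 higher of 79 (median -0.23), and Nduf genes of respiratory complex I had 4 lower of 46 (median -0.25). Of 7 proliferation genes 6 were lower (median -2.04). The cardiomyocyte markers in these samples had a median of -2.72, with 4 of 7 lower, and 3 of 6 macrophage markers were higher, and their part in the result was not tested. In sorted cells, too, fewer cells of a type and less RNA per cell cannot be told apart.

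The members' transcripts are short, with a median of 774 bases against 2418 over all genes tested in hearts. In the 4-week comparison of cardiac fibroblasts, length and log2 fold change had a Spearman's rho of 0.09 across 12044 genes. Between 500 and 700 bases, 252 other genes had a median of -0.29 and 22 members a median of -0.84. With an offset for transcript length in the fit, 61 members were lower and 0 higher. The share of all genes called under that offset is not given here. Without the offset and without any 1 of the 12 samples, the count of members stayed between 69 and 74.

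**Figure D2:**
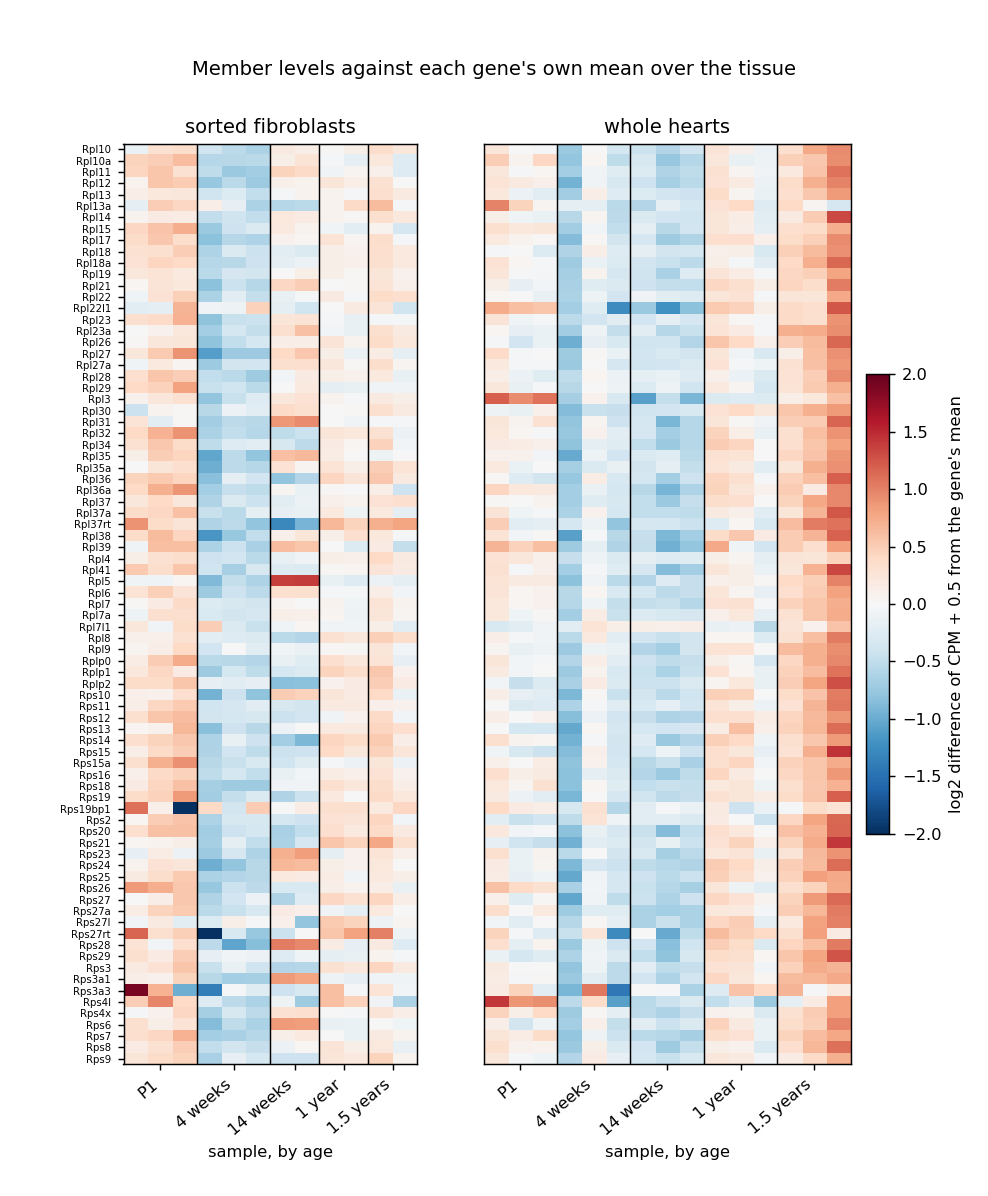
Difference of log2(CPM + 0.5) from each gene's own mean over the tissue, for 81 members with a mean of at least 1 CPM in both tissues (rows) and all samples ordered by age (columns), with colors limited at 2 in each direction. Fibroblasts are lowest at 4 weeks for most members while Rpl5 stands out at 14 weeks, and whole hearts are highest at 1.5 years, with Rpl3 highest at P1.

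From 4 to 14 weeks part of the set rose again in cardiac fibroblasts. Of 89 members 33 were higher and 1 was lower (edgeR, adjusted p under 0.05), against 1.79% and 2.08% of all genes (3.87% in either direction), and the median was 0.45. The ages did not overlap for 62 members and for 34.7% of all genes. The 5S-binding Rpl5 had the largest rise among members that passed. It was at 60.8, 81.2, and 73.5 CPM at 4 weeks and at 296 and 299 CPM at 14 weeks (log2 fold change 2.05, SE 0.14, adjusted p = 2.44e-05), whereas all other fibroblast samples held between 94.1 and 116 CPM. Rps28 was at 47.5, 32.5, and 37.6 CPM and then at 140 and 133 CPM (log2 fold change 1.80, SE 0.20, adjusted p = 0.000502). Both 14-week samples thus lay above all other fibroblast samples in these genes. Rps6, the small subunit protein phosphorylated by S6 kinases, rose by 1.51 (adjusted p = 9.24e-05), Rpl31 by 1.50 (adjusted p = 0.000247), and Rps3a1 by 1.46 (adjusted p = 0.000116).

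The one member that fell was the stalk gene Rplp2, from 222, 214, and 221 CPM to 139 and 140 CPM (log2 fold change -0.66, SE 0.13, adjusted p = 0.0165). Rplp0 and Rplp1 were at 0.36 and 0.20 (adjusted p = 0.332 and 0.609), so that the stalk genes did not share a direction that passed the test. Rps19 was at -0.04 (adjusted p = 0.99) and Rpl11 rose by 1.07 (adjusted p = 0.00161). Of 14 translation factors and related genes 4 were higher, led by Eef1g (0.82) and Eef1a1 (0.71). Npm1 (0.79) was the 1 higher gene of 30 for ribosome biogenesis. Mitochondrial ribosomal protein genes had 0 higher and 1 lower of 79.

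The rise at 14 weeks went with the share of sequence that a member has in common with other genes. In the 84 members whose mean reached 1 CPM, fold change and shared windows had a Spearman's rho of 0.41, a description over genes counted in the same libraries. Of 16 members with under 20% of windows shared 1 was higher (Rpl39, log2 fold change 1.18, adjusted p = 0.0232) and their median was -0.03. Of 22 members between 20% and 50%, 9 were higher (median 0.35), and of 46 members above 50%, 23 were higher and 1 lower (median 0.62). Rpl5 has 93.0% of its windows shared and 46.6% of its exon bases under another gene. GC content moved with the comparison as well, with a rho of -0.35 over 12044 genes and -0.22 over the members. The sum of 6 macrophage markers was 301 to 505 CPM at 4 weeks and 34.7 to 52.2 CPM at 14 weeks, and that of 5 mural cell markers 81.2 to 166 CPM and 361 to 461 CPM. The 7 proliferation genes went from 86.3 to 174 CPM down to 25.9 to 27.3 CPM, and Xist was present at 4 weeks and near 0 at 14 weeks. The part of these in the result was not tested. The count fell to 14 without replicate 4 of 14 weeks, to 11 without replicate 6, and to 22 without replicate 1 of 4 weeks.

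**Figure D3:**
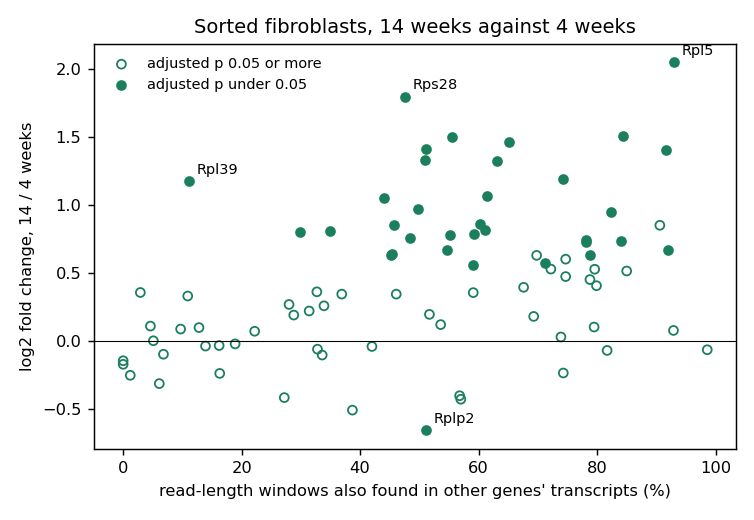
Log2 fold change from 4 to 14 weeks in cardiac fibroblasts (vertical axis) against the share of a member's 65-base windows also found in transcripts of other genes (%, horizontal axis), for 84 members, filled where the adjusted p was under 0.05. Members with under 20% of windows shared lie around 0 except Rpl39, and Rpl5 has the largest rise (2.05).

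From 14 weeks to 1.5 years, the members of cardiac fibroblasts moved in both directions. Of 89, 11 were higher and 5 lower (edgeR, adjusted p under 0.05), against 1.91% and 0.816% of all genes (2.72% in either direction), and the median was 0.21. With 2 samples at each age, 64 members and 51.3% of all genes did not overlap. Among the largest rises were Rpl37rt (log2 fold change 1.96, adjusted p = 0.0148), Rplp2 (1.18, adjusted p = 0.00135), Rps14 (1.14, adjusted p = 0.0075), and Rpl36 (1.06, adjusted p = 0.0153). The falls were in Rpl5 (-1.55, adjusted p = 0.000354), Rps28 (-1.02, adjusted p = 0.0304), Rpl31 (-0.94, adjusted p = 0.0104), Rps3a1 (-0.90, adjusted p = 0.0075), and Rps6 (-0.89, adjusted p = 0.00802). The same 14-week samples enter this and the previous comparison, in which Rplp2 was lower and the latter 5 genes higher. Rplp2 was at 139 and 140 CPM at 14 weeks, 263 and 279 CPM at 1 year, and 349 and 278 CPM at 1.5 years. For the fits that follow, the share of all genes called is not given here. With an offset for transcript length 7 members were higher and 9 lower, and the median was -0.02. Scaled by library size only, 9 members were higher and 9 lower. The count was 3 without replicate 4 of 14 weeks, 2 without replicate 6, and 4 without replicate 4 of 1.5 years. Marker sums moved over the same interval without overlap, macrophage from 34.7 to 52.2 up to 74.5 to 89.5 CPM, red cell from 18.1 to 19.2 up to 34.0 to 94.1 CPM, and mural from 361 to 461 down to 148 to 304 CPM. Their part in the result was not tested. Over the 5 ages, 73 of 89 members differed, against 19.9% of all genes, and the mean was lowest at 4 weeks for 63 of 84 members.

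In whole hearts, part of the members were lower at 4 weeks than at P1, and Rpl3 and Rpl3l changed in opposite directions. In edgeR 21 of 90 members were lower and 1 higher at an adjusted p under 0.05, against 6.1% and 12.1% of 17995 genes (18.2% in either direction), and the median was -0.41 over members and -0.09 over all genes. The ages did not overlap for 38 members and for 39% of all genes. Rpl3l was the member that rose. It was at 9.68, 3.20, and 5.52 CPM at P1 and at 228, 286, and 220 CPM at 4 weeks, which gave 5.32 as log2 fold change (SE 0.32, adjusted p = 1.03e-08). The widespread gene Rpl3, whose protein sits near the site where amino acids are joined, fell from 303, 255, and 280 CPM to 82.7, 140, and 107 CPM (log2 fold change -1.35, SE 0.20, adjusted p = 0.000113). The groups did not overlap in either gene.

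Other large falls were in Rps4l (-1.40, adjusted p = 0.00526), Rpl22l1 (-1.34, adjusted p = 0.00363), Rpl39 (-1.08, adjusted p = 0.00765), and Rps26 (-0.76, adjusted p = 0.00477). Rpl22l1 was at 28.8, 25.8, and 25 CPM at P1 and at 10.3, 14.3, and 6.75 CPM at 4 weeks, while Rpl22 was at -0.33 (adjusted p = 0.202). The stalk genes Rplp0, Rplp1, and Rplp2 were at -0.25, -0.33, and 0.04, and none passed. Among translation factors the elongation factor genes Eef1a1 and Eef1a2 moved apart. Eef1a1, the form of most tissues, went from 3780, 3516, and 3522 CPM to 835, 1020, and 990.1 CPM (log2 fold change -1.93, adjusted p = 9.59e-08), and Eef1a2, the form of adult muscle and neurons, from 263, 304, and 323 CPM to 1252, 1743, and 1314 CPM (log2 fold change 2.28, adjusted p = 7.99e-08). Of 81 mitochondrial ribosomal protein genes 28 were higher and 0 lower (median 0.43), and of 47 Nduf genes 34 were higher (median 0.84).

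Markers of several cell types moved with this comparison. Cardiomyocyte markers summed to 32760 to 39740 CPM at P1 and 59450 to 72710 CPM at 4 weeks, and endothelial markers to 956 to 1164 CPM and 1456 to 1604 CPM. Macrophage markers were at 61.8 to 84.2 CPM and then at 379 to 483 CPM, while the 7 proliferation genes fell from 222 to 336 CPM to 51.2 to 79.1 CPM. Their part in the result was not tested. The number of lower members depended on single hearts and on scaling. It was 5 without replicate 1 of 4 weeks, 36 without replicate 2, and 10 without replicate 3, while it was 7, 13, and 9 without replicates 1, 2, and 3 of P1. Scaled by library size only it was 74, a scaling that puts the median over all genes at -0.60. The share of all genes called is not given here for these fits. Rpl3l was higher in each of these fits. From 4 to 14 weeks 0 of 90 members passed in edgeR (0.756% of all genes were higher and 0.85% lower, 1.61% in all) and 0 with DESeq2, and 2 (Rpl3 at -0.54 and Rpl24) had an unadjusted p under 0.05. The median was -0.12, and 0.07 without replicate 2 of 4 weeks. The ages did not overlap for 3 members and for 20.1% of all genes.

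The Rpl3 and Rpl3l pair was followed through all ages per kilobase of transcript. Rpl3l made up 3.46%, 1.39%, and 2.16% of the pair in the hearts of P1 and 75.6%, 69.6%, and 69.9% at 4 weeks. Hearts of 14 weeks had 83.2% ± 2.57, those of 1 year 78.3% ± 2.5, and those of 1.5 years 73.2% ± 0.361 (SD, n = 3 each). From low to high the ages after P1 stood in the order 4 weeks, 1.5 years, 1 year, and 14 weeks. The samples of 4 weeks (69.6% to 75.6%) overlapped with those of 1.5 years (72.9% to 73.6%), and 1 year (75.6% to 80.5%) met 14 weeks (80.5% to 85.6%) at its upper end. In cardiac fibroblasts Rpl3l stayed at or below 1.39 CPM, and its mean share of the pair was between 0.0524% and 0.3% at the 5 ages. Rpl3l has 0% of its windows in common with other transcripts and Rpl3 84.1%, and reads that map to several places are not counted, so that the level of Rpl3 can be understated and the share of Rpl3l overstated. Over the 15 hearts, the genes whose log2 CPM followed Rpl3l most closely among 8485 were Ces1d (Pearson's r 0.995), Trim54 (0.991), Rxrg (0.991), Art1 (0.988), and Hspb8 (0.988). With the mean of each age taken out, r for these 5 genes was between 0.46 and 0.887.

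**Figure D4:**
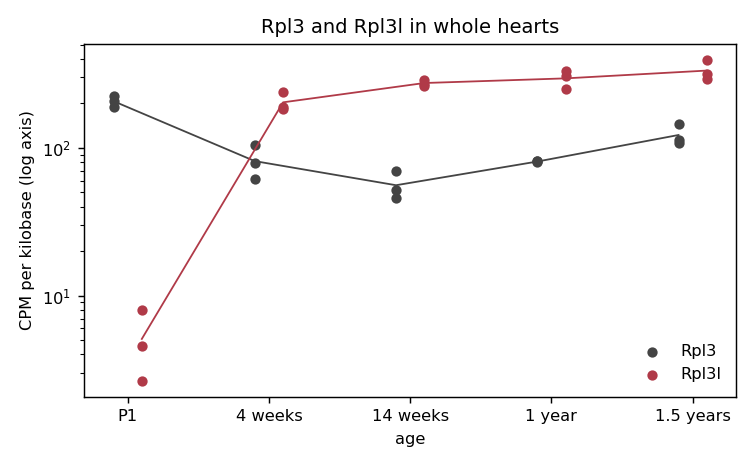
Levels of Rpl3 and Rpl3l in whole hearts as CPM per kilobase of transcript (log axis) by age, with 1 point per sample (n = 3) and lines through the means. Rpl3l lies below Rpl3 at P1 and above it in every heart from 4 weeks on.

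From 14 weeks to 1.5 years nearly the whole set rose in whole hearts. In edgeR 77 of 90 members were higher and 0 lower at an adjusted p under 0.05, against 4.91% and 7.86% of all genes (12.8% in either direction), and the median log2 fold change was 1.13 over members and -0.03 over all genes. The ages did not overlap for 81 members and for 31.7% of all genes. Both subunits took part, with 46 of 53 large and 31 of 37 small subunit members higher. Rpl22l1 had the largest rise among members that passed, from 9.94, 7.03, and 9.42 CPM at 14 weeks to 22.3, 21.4, and 40.7 CPM at 1.5 years (log2 fold change 1.68, SE 0.30, adjusted p = 0.0022). Rpl38 was at 47.4, 34.8, and 40.6 CPM and then at 93.2, 105, and 148 CPM (log2 fold change 1.50, SE 0.24, adjusted p = 0.00135). Rps20, a small subunit protein, was at 161, 121, and 156 CPM and then at 330, 355, and 496 CPM (log2 fold change 1.43, SE 0.20, adjusted p = 0.000572). In all 3 genes the groups did not overlap, and replicate 3 of 1.5 years was the highest. Rpl41 (1.43, adjusted p = 0.00167) and Rps29 (1.43, adjusted p = 0.000572) came next.

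Stalk, 5S-binding, and disease-linked members were among those that rose. Rplp0, Rplp1, and Rplp2 had log2 fold changes of 1.18, 1.25, and 1.28 (adjusted p = 0.00132, 0.00132, and 0.0016). Rpl5, Rpl11, and Rps19 were at 1.08, 1.12, and 1.22 (adjusted p = 0.00217, 0.00295, and 0.00276). Rpl3 rose by 1.13 (adjusted p = 0.00205), while Rpl3l was at 0.28 (adjusted p = 0.549). Members that did not pass also included Rps4l (0.76, adjusted p = 0.131), Rps19bp1 (0.35, adjusted p = 0.458), and Rpl7l1 (0.20, adjusted p = 0.497). Rps20 was at 277, 254, and 218 CPM at 1 year, above all 14-week samples and below those of 1.5 years. The mean was lowest at 14 weeks for 63 of 84 members and highest at 1.5 years for 78 of 84, and over the 5 ages 79 of 90 members differed, against 34.3% of all genes.

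The rise in old hearts went with transcript length over the whole transcriptome. Length and log2 fold change had a Spearman's rho of -0.59 across 12239 genes and of -0.43 across 84 members. Other genes of 500 to 700 bases had a median of 0.80 and members a median of 1.19. At 700 to 1000 bases the medians were 0.61 for 654 other genes and 1.08 for 31 members, and at 1000 to 1500 bases 0.40 for 1292 other genes and 1.11 for 12 members. Genes over 4000 bases had a median of -0.60. With an offset for transcript length in the fit 33 members were higher and 0 lower, while 4.51% of all genes passed in either direction (12.8% without the offset), and the median over members was 0.44. The 33 were among the 77. Rpl38, Rpl22l1, and Rps29 were among those that no longer passed. Rps20 and Rps15a entered as long transcripts, at 3706 and 5130 bases, the median over their annotated transcripts. The part of length in the result was not tested further. Without replicate 3 of 1.5 years 70 members were higher.

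**Figure D5:**
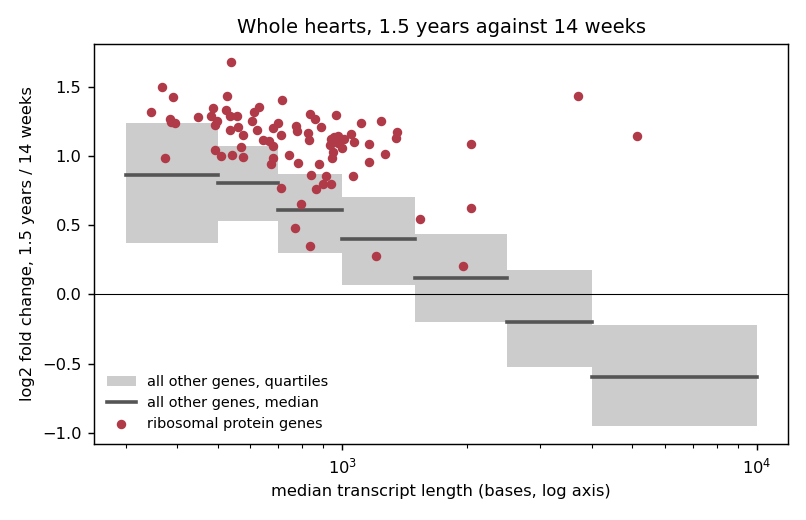
Log2 fold change from 14 weeks to 1.5 years in whole hearts (vertical axis) against median transcript length (bases, log axis), with 84 ribosomal protein genes as points and, for all other genes in 7 bins of length, the median (line) and quartiles (band). Medians of other genes fall from 0.86 below 500 bases to -0.60 above 4000 bases, and most ribosomal protein genes lie above the median of their bin.

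Other genes of translation followed in part. Of 14 translation factors and related genes 8 were higher and 0 lower from 14 weeks to 1.5 years (median 0.59). The largest rises were in Eef1b2 (1.03), Tpt1 (0.83), and Eef1a1 (0.79). Rpsa (1.31), Fau (1.25), and Rack1 (1.05) were the 3 higher of 4 ribosomal proteins with other names. Ribosome biogenesis genes had 3 higher, Nop10 (0.92), Nhp2 (0.78), and Nop56 (0.56), and 1 lower, Polr1a (-0.62), of 30, with a median of -0.03. Mitochondrial ribosomal protein genes had 30 higher and 0 lower of 81 (median 0.55), and Nduf genes 30 higher and 1 lower of 47 (median 0.71). Over all genes 4.91% were higher and 7.86% lower, and the trend with transcript length was not taken out of these list values. Macrophage markers summed to 303 to 344 CPM at 14 weeks and 503 to 696 CPM at 1.5 years, and red cell markers to 273 to 347 CPM and 626 to 1496 CPM. The cardiomyocyte sums overlapped, at 56800 to 62600 and 55100 to 75270 CPM. The part of these cells in the result was not tested.

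Between the tissues, the change from P1 to 4 weeks differed for 4 members, with 7.14% of all genes differing in either direction. In a fit of all 27 samples, this change was lower in cardiac fibroblasts than in whole hearts for Rps2 (difference of log2 fold changes -1.08, adjusted p = 0.0261), Rpl27 (-1.06, adjusted p = 0.0457), Rpl28 (-0.94, adjusted p = 0.0208), and Rpl29 (-0.81, adjusted p = 0.0485) of 90 members tested, and 0 were higher. Over all 20650 genes 3.96% were lower and 3.18% higher, so that the share of members is near the background. The count was 26 without replicate 1 of the 4-week hearts, 0 without replicate 2 or replicate 3 of the P1 hearts, and with library size scaling 3 members were higher and 0 lower.

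Averaged over the 5 ages, 67 of 90 members were lower and 2 higher in cardiac fibroblasts than in whole hearts (edgeR, adjusted p under 0.05), against 29.1% and 27.7% of all genes (56.8% in either direction), with a median of -0.57. The tissues did not overlap for 4 members and for 18.2% of all genes. This direction turned with an offset for transcript length, under which 71 were higher and 8 lower and the median was 0.60. Scaled by library size only, 11 were higher and 42 lower. Shares of all genes called in both of these fits are not given here, so the counts cannot be set against them. The study sequenced fibroblasts and the hearts they came from, so that samples of the tissues may share hearts. Same-numbered samples of P1 and 4 weeks, 3 pairs at each age, had correlations of their deviations between -0.0533 and 0.0383 across 12305 genes. Fibroblast samples of the later ages share no replicate number with any heart. A fit with the replicate number as a block therefore cannot estimate the tissue difference over the 5 ages, and no count is given from it. Rpl3l was the farthest apart (log2 difference -9.27, adjusted p = 6.2e-14), and Rps27l, a gene induced by p53, was at -2.07 (adjusted p = 3.26e-13). Rps27l was between 7.36 and 19.1 CPM in the fibroblast samples and between 27.9 and 87.4 CPM in the hearts, with no overlap. Rpl36 (-1.78) and Rps19bp1 (-1.55) were also among the farthest apart. The 2 higher members were Rpl3 (0.57, adjusted p = 3.64e-06) and Rpl4 (0.18, adjusted p = 0.0208).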

How the data were processed

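The authors sequenced polyA RNA as single-end reads, aligned them with STAR 2.5.3a to mm10, and deposited raw counts of reads per gene. The annotation and the strand setting are not given in the sources used here. All 27 samples were used and grouped by their labels. None of 24 replicate pairs held identical counts. Counts were tested with edgeR 4.0.16 in R 4.3.3 (filterByExpr, TMM scaling, quasi-likelihood F test, all ages of a tissue in 1 fit, Benjamini-Hochberg adjustment over all genes tested). Fits were run on simulated data with planted changes larger than most reported here. That run does not speak for smaller changes. The SE of a log2 fold change was derived from its F statistic. Lengths and shared windows came from GENCODE M21. The members and lists were chosen with earlier results of these data known. Named members were second or like-named genes with their partners, stalk and 5S-binding members, and Rps19. Also named were the 5 largest rises and falls per comparison with at least 10 CPM, the extremes per kilobase, and members not tested. Some that met this rule are not reported here. Plots used matplotlib. Alternatives were DESeq2 1.42.0, other scalings and filters, only the ages compared, a replicate block, each replicate left out, mitochondrial counts left out, and a length offset. Offsets with GC content were added after seeing the data.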

Additional observations from a re-analysis of the deposited data

Results flagged for a closer look

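The change from P1 to 4 weeks differed between the tissues for 4 of 90 members in an interaction test over all 27 samples. Over all genes 7.14% differed, so that the share of members is near the background. Without replicate 2 of the P1 hearts 0 members differed. The fibroblast change minus the heart change was -1.06 for Rpl27, -0.94 for Rpl28, -0.81 for Rpl29, and -1.08 for Rps2. In cardiac fibroblasts alone these genes fell by 1.43, 1.05, 1.03, and 0.80 on the log2 scale, and in whole hearts they were at -0.38, -0.11, -0.22, and 0.27, with no adjusted p below 0.27 in edgeR.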

How the results depend on the processing

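The fall of members in cardiac fibroblasts from P1 to 4 weeks and their rise in whole hearts from 14 weeks to 1.5 years kept their direction under every alternative run. Leaving out 1 replicate at a time gave 69 to 74 members for the fibroblast change from P1 to 4 weeks, 11 to 36 from 4 to 14 weeks, and 2 to 17 from 14 weeks to 1.5 years. For hearts the ranges were 6 to 37, 0 to 0, and 70 to 78 in the same order. They were 69 to 74 and 75 to 80 over the 5 ages in cardiac fibroblasts and whole hearts, 60 to 70 between the tissues, and 0 to 26 for the interaction. Where 1 sample was left in a group, it was assumed to vary like the others. From 14 weeks to 1.5 years in cardiac fibroblasts, DESeq2 called 33 members, the length offset 16 (7 higher and 9 lower, median -0.015), and the length and GC offset 11 (4 higher and 7 lower, median -0.023). From P1 to 4 weeks in whole hearts, 75 were called with library size scaling, 56 with the length offset, 62 with the length and GC offset, and 10 with only the ages compared. From 4 to 14 weeks in whole hearts library size scaling called 1, and the median ran from -0.267 without replicate 1 of 4 weeks to 0.066 without replicate 2. From 14 weeks to 1.5 years in whole hearts 33 were called with the length offset and 40 with the length and GC offset. Between the tissues the length offset called 79 (median 0.60) and the length and GC offset 78 (median 0.58). For the interaction, DESeq2 called 24, median-of-ratios size factors 9, library size scaling 3 (all higher, median 0.009), at least 10 counts in every sample 8, the length offset 8, the GC offset 9, and the length and GC offset 7. The cause was not tested. The share of all genes called in each of these fits is not given here, so the counts cannot be set against it. Deviations of same-numbered samples correlated between -0.03 and 0.04 in cardiac fibroblasts and between -0.06 and 0.10 in whole hearts. Across the tissues at P1 and 4 weeks they correlated between -0.0533 and 0.0383. With so few samples at each age, these values cannot tell whether same-numbered samples share a heart or a batch. With a replicate block 0 members were called from 14 weeks to 1.5 years in cardiac fibroblasts, 29 between the tissues, 2 for the interaction, and 18 from P1 to 4 weeks in whole hearts. The block was not run from 4 to 14 weeks in cardiac fibroblasts, where no number is shared, nor over the 5 ages. Depth did not limit most members, whereas Rpl10l and Rps12l1 were too low to test in cardiac fibroblasts.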
